A study of Mus musculus with 12 samples.

Results

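Coenzyme Q, or ubiquinone, is the lipid that carries electrons between the respiratory complexes in the inner mitochondrial membrane, and 10 genes of its synthesis were followed here in mouse liver and in RAW264.7 cells, a mouse macrophage line. The members were taken as the rows of both count tables whose Ensembl identifier maps to Coq2, Coq3, Coq4, Coq5, Coq6, Coq7, Coq8a, Coq8b, Coq9 or Pdss1. All 10 were found once in each table, among 55357 gene identifiers, and all 10 passed the filter on low counts in both tables. The group was selected on a measured value, because Coq8a was among the genes that differed most between esculetin-treated and control cells, and the cell comparison of the members is therefore given as a description without p-values. The rule for that choice used no liver value, and the liver comparison is given with its test. Earlier results of these data were, however, known when the members were chosen.

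RNA was sequenced in 12 libraries, in 4 groups of 3. The liver libraries came from male C57BL6/J mice aged 8 to 9 weeks. All mice received a diet with 10% of energy as fat for 4 days and were then switched for 3 days to a diet with 60%. Gavage ran over 7 days, with 90 mg/kg per day of esculetin (a coumarin found in plants) in 1 group and with the vehicle alone, 2.5% Tween-80, in the control group. According to a supplementary legend of the study, each liver library pooled a pair of mice. All RAW264.7 cultures carried 25 µg/mL of fluorescently labelled oxidized low-density lipoprotein (DIL-oxLDL) for 24 hours, together with 40 µg/mL esculetin or with DMSO as solvent. The line is a single transformed line rather than a primary macrophage, no animals or cells without the lipid load were analysed here, and no source states that the 3 cultures of a group were independent, so p-values measure only the spread between these libraries.

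The ring of coenzyme Q is made from hydroxybenzoate and its tail from isoprene units supplied by the mevalonate pathway. Pdss1 encodes a subunit of the synthase that builds the tail, and Coq2 encodes the transferase that joins tail and ring. Coq3 and Coq5 encode methyltransferases and Coq6 and Coq7 hydroxylases that modify the ring. Coq4 and Coq9 encode further subunits of the complex that these enzymes form on the inner membrane, Coq9 as the lipid-binding partner of the Coq7 protein. Coq8a and Coq8b encode paralogous atypical kinases of the ADCK family that are needed for the complex to form and work. Inherited loss of many of these genes in humans causes primary coenzyme Q deficiency, with ataxia typical for COQ8A and kidney disease for COQ8B. Liver makes its own coenzyme Q.

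The promoters of Coq8a, the member that stood lowest against control in the cells, and of Pdss1, the member that stood highest, are shown first. Each window runs from 250 bases before to 50 bases after the first base of the canonical transcript, was read from GRCm39, and is written 5′ to 3′ on the gene's own strand. The Coq8a window is chr1:180023581-180023880 on the minus strand, and the Pdss1 window chr2:22785243-22785542 on the plus strand. The annotated Coq8a gene, with 110 transcripts, extends upstream of its window to 180029294. Which start was used in these livers and cells was not tested. Capitals mark matches, on either strand, to 7 motifs fixed for the search, and no marked matches overlapped.
Coq8a: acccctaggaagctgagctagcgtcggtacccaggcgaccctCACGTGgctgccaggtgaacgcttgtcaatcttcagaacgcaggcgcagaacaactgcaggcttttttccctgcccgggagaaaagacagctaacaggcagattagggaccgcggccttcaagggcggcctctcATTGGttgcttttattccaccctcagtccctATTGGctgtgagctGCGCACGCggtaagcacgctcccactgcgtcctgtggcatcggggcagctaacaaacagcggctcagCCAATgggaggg
Pdss1: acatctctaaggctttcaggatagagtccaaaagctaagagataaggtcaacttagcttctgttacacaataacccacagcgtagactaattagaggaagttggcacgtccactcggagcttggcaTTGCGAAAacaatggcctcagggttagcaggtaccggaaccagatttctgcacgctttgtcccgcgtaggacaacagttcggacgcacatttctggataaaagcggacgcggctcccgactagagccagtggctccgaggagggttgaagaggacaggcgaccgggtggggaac

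The Coq8a window held the CCAAT box (CCAAT) at -74, -43 and 39, the E-box (CACGTG) at -208 and the NRF1 motif (GCGCANGC) at -29, counted from the start of the transcript to the first base of the match. The Pdss1 window held only the C/EBP motif (TTGCNNAA), at -124. C/EBP factors are named because the study concerns C/EBPβ. Of 21757 promoters of the same length, 39.9% held the CCAAT box, 7.82% the E-box, 12.3% the NRF1 motif and 10.7% the C/EBP motif. The other motifs searched were ETS (CCGGAAG; 10.3% of promoters), ERR (TNAAGGTCA; 1.24%) and E2F (TTTNGCGC; 1.70%), and neither window held any of these 3. The GC content was 59.3% in the Coq8a window and 52.3% in the Pdss1 window, against a median of 54.3% over all promoters. A match is a run of letters and says nothing of binding.

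Libraries held 14659876 to 20346460 counts in the liver and 13752842 to 20001959 in the cells. Values below are CPM, counts scaled to a common library total, on each table's own TMM scale, which corrects library size for composition. The labelled sources matched their markers: the summed level of 8 hepatocyte genes was 107399 to 135936 CPM in the livers and 0 to 0.878 CPM in the cells, with Ttr, Apoa1, Apoc3, Serpina1a and Tat at 0 in every cell library. The summed level of 8 macrophage genes was 2561 to 2757 CPM in control cells, 5295 to 7867 CPM in esculetin cells and 167 to 218 CPM in the livers. In the cells 4 of 5 Kupffer markers (Clec4f, Timd4, Vsig4 and Marco) were at 0 in the controls. The biliary marker list was carried in the cells by Spp1, which macrophages also express, while Krt19 and Sox9 were at 0 throughout. In bulk RNA, fewer cells of a type and less RNA per cell cannot be told apart.

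In the liver, the question was whether a week of esculetin moved the genes of coenzyme Q synthesis under a high-fat diet. None of the 10 members passed the test in edgeR's quasi-likelihood fit at a Benjamini-Hochberg adjusted p of 0.05. Over all 12813 genes tested, 11 passed, or 0.0859%, so that few calls were to be had in this table. At an unadjusted p under 0.05 the count of members was 2 with edgeR, 1 with DESeq2 and 3 with limma-voom. It was 6 without control replicate 3, 0 without esculetin replicate 1 and 0 without esculetin replicate 3. The log2 fold change (esculetin over control) was above 0 in 8 of 10 members, and its median was 0.25 against -0.02 over all genes. Without control replicate 1 the members' median was 0.16, and 6 of 10 members lay above the median of all genes, in place of 8. In 3 members every esculetin library lay above every control library, and in none below. Among all 12813 tested genes 835 lay wholly above, and 14.5% had groups that did not overlap in either direction.

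The kinase gene Coq8a was one of those 3. Coq8a (ENSMUSG00000026489, chr1:179992803-180029294, minus strand) measured 443, 593 and 575 CPM in the control livers and 616, 698 and 660 CPM in the esculetin livers. All 3 esculetin livers were above the highest control, and control replicate 1 stood below the other controls. The mean was 537 ± 82.4 CPM in controls and 658 ± 41.2 CPM with esculetin (SD, n = 3 each), a log2 fold change of 0.29 (SE 0.14) with an edgeR adjusted p of 0.622. Without control replicate 1 the log2 fold change of Coq8a was 0.18. Its paralog Coq8b (ENSMUSG00000003762, chr7:26926688-26957376, plus strand) measured 14.7, 18.9 and 24.6 CPM in controls and 19.3, 17.3 and 17.1 CPM with esculetin. The esculetin values lay inside the control range, and the estimate on the log2 scale was -0.12 (SE 0.18), with an edgeR adjusted p of 0.890.

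Among the enzymes that modify the ring, the methyltransferase Coq3 (chr4:21879624-21913961) measured 22.4, 18.01 and 22.4 CPM in control livers and 27.2, 24.1 and 26.1 CPM with esculetin. The groups did not overlap, the log2 fold change was 0.30 (SE 0.14), and the edgeR adjusted p was 0.593. The hydroxylase Coq6 (chr12:84408394-84420767) measured 15.3, 18.1 and 17.7 CPM against 19.8, 20.5 and 23.5 CPM. It was the third member whose groups did not overlap, at a log2 fold change of 0.32 (SE 0.14), and its adjusted p in edgeR was 0.572. The other methyltransferase, Coq5 (chr5:115417725-115436585), measured 31.0, 33.3 and 34.0 CPM against 32.2, 36.4 and 30.9 CPM. Its groups overlapped and its log2 fold change was 0.02 (SE 0.12), and its adjusted p in edgeR was 0.981. The other hydroxylase, Coq7 (chr7:118108882-118132579), had a log2 fold change of 0.12 (SE 0.18), and its adjusted p in edgeR was 0.880.

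The transferase Coq2 (chr5:100802559-100823006) measured 37.7 ± 5.18 CPM in control livers and 46.2 ± 7.96 CPM with esculetin (SD, n = 3 each), a log2 fold change of 0.29 (SE 0.15), and its adjusted p in edgeR was 0.636. The complex subunit Coq4 (chr2:29677505-29687947) measured 5.28, 7.85 and 9.50 CPM against 11.5, 7.73 and 10.8 CPM. Its groups overlapped, at a log2 fold change of 0.41 (SE 0.23) and an adjusted p of 0.664 in edgeR, and its estimate was 0.22 without control replicate 1 and 0.59 without control replicate 3. Coq9 (chr8:95564949-95581525) measured 104, 118 and 131 CPM against 129, 143 and 136 CPM, overlapping by 1 control library, with a log2 fold change of 0.21 (SE 0.12), and its adjusted p in edgeR was 0.666. Pdss1 (chr2:22785492-22830278), which makes the tail, was the least counted member, at 27 to 52 counts a liver library. It measured 2.53 ± 0.530 CPM and 1.91 ± 0.141 CPM (SD, n = 3 each), a log2 fold change of -0.40 (SE 0.28), and its adjusted p in edgeR was 0.727.

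**Figure D1:**
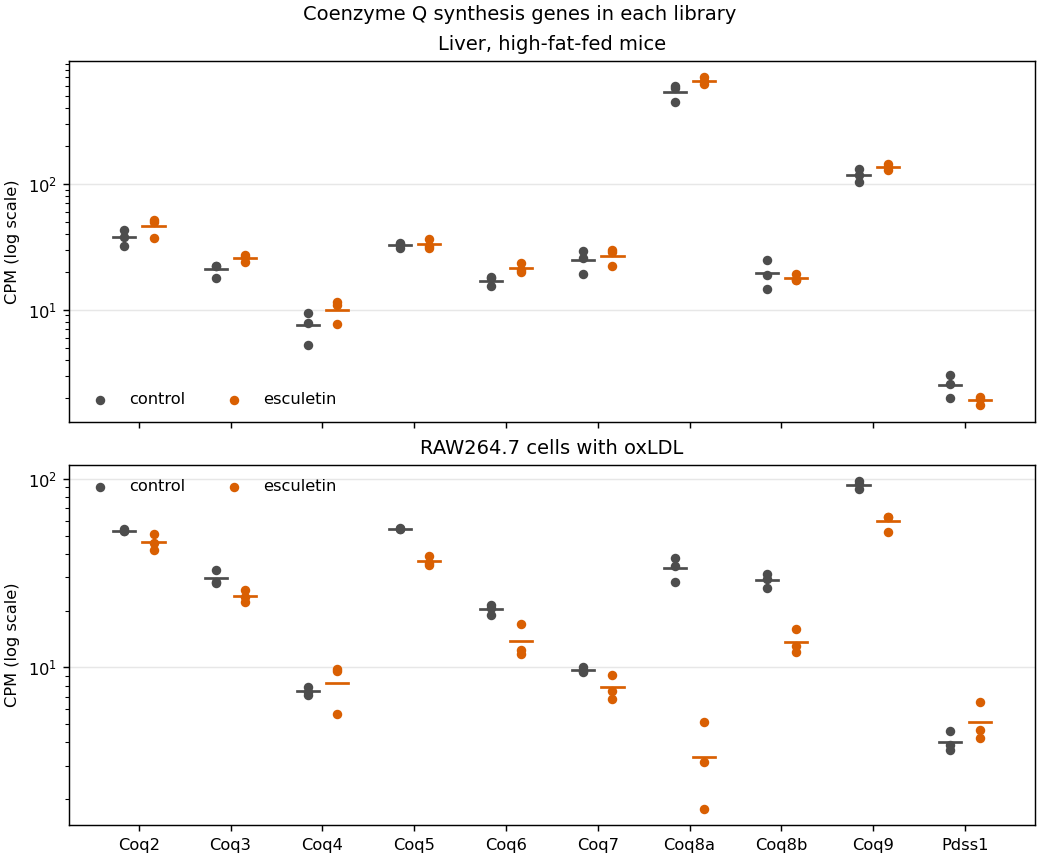
Level of each of the 10 genes in every library, as CPM on a log axis, for the liver (top) and the RAW264.7 cells (bottom). Points are libraries, 3 a group, and short lines are means. In the cells the 3 esculetin values of Coq8a (1.78 to 5.12 CPM) lie far below its controls (28.2 to 38.0 CPM), while in the liver its groups lie close together. Coq8a was chosen on its fall in the cells.

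Marker genes of other cell types that stood apart between the liver groups are given beside these values, and none of them was called. The summed level of 7 muscle, fat and pancreas genes was 16.3 to 25.3 CPM in control livers and 26.9 to 37.3 CPM with esculetin. Most of this sum was the single gene Cela1, at 16.2, 17.9 and 25.1 CPM in controls and 25.5, 26.2 and 30.8 CPM with esculetin. Pnliprp1 was at 0 in the controls and Prss2 at 0 with esculetin, and Cela1, the 1 gene of this list with enough counts to be tested, was not called (0.48, SE 0.17, edgeR adjusted p 0.480). Adipoq, which was not tested, was at 0.141 ± 0.127 and 1.79 ± 1.79 CPM (SD, n = 3 each). The macrophage sum overlapped, at 167 to 218 and 173 to 186 CPM, but 6 of its 7 tested genes had a log2 fold change below 0 (median -0.28). In Cd68 (-0.50, SE 0.17), Adgre1 (-0.31, SE 0.15) and Csf1r (-0.28, SE 0.11), and likewise in the Kupffer gene Marco (-0.77, SE 0.23) and the biliary gene Sox9 (-0.70, SE 0.25), every esculetin liver lay below every control. The same held for 1018 of all 12813 tested genes. The Kupffer sum (281 to 328 and 258 to 295 CPM) and the biliary sum (33.4 to 37.2 and 29.6 to 35.3 CPM) overlapped. So did the other Kupffer genes, Clec4f (-0.22), Timd4 (-0.10), Cd5l (-0.08) and Vsig4 (0.02). The other biliary genes also overlapped: Epcam (-0.32), Spp1 (-0.04), Krt19 (0.01) and Krt7 (0.15). The hepatocyte sum overlapped, with Ttr (-0.23, SE 0.14) apart and below and Apoc3 (0.28, SE 0.14) and Serpina1a (0.26, SE 0.15) apart and above. The part of these levels in the members' values was not tested.

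In the cells, the comparison asked what esculetin did to macrophages that were taking up oxidized lipoprotein. Coq8a had the largest fall among the 2926 genes that were called lower, had a mean of at least 10 CPM over the table and had groups that did not overlap. Next to it stood Pif1 at -3.23 and Tmem231 at -3.05 on the log2 scale. These are the values that chose Coq8a, and they are given for description. Of the 10 members, 6 were called in edgeR's quasi-likelihood fit, all lower with esculetin. Of all 13277 genes tested, 57.7% were called, 29.0% lower and 28.7% higher. In 8 members every esculetin library lay below every control library, and in none above. Among all 13277 tested genes 4398 lay wholly below, and 64.1% had groups that did not overlap in either direction. The median log2 fold change of the members was -0.44, and that over all genes was -0.01.

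Coq8a was counted 545, 706 and 712 times in the control cells and 70, 46 and 32 times in the esculetin cells. On the CPM scale it measured 28.2, 38.0 and 34.6 in controls and 5.12, 3.14 and 1.78 with esculetin. The lowest control was thus several times the highest esculetin library, and the esculetin libraries differed among themselves more, in proportion, than the controls did. The mean was 33.6 ± 4.94 CPM in controls and 3.35 ± 1.68 CPM with esculetin (SD, n = 3 each), a log2 fold change of -3.36 (SE 0.27), or 10.3-fold lower. It ran from -3.80 without esculetin replicate 1 to -3.03 without esculetin replicate 3.

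Coq8b was the next lowest of the members. It measured 26.5, 31.2 and 29.3 CPM in control cells and 12.0, 13.0 and 15.9 CPM with esculetin. The groups were far apart, with a log2 fold change of -1.08 (SE 0.13), or 2.12-fold lower, and Coq8b was called. Both kinase paralogs were therefore lower with esculetin in the cells, by different amounts.

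The ring-modifying enzymes were lower by less. Coq5 measured 54.7, 54.2 and 53.9 CPM in control cells and 35.0, 39.2 and 35.6 CPM with esculetin, a log2 fold change of -0.57 (SE 0.09), and was called. Coq6 measured 18.9, 21.4 and 20.8 CPM against 11.8, 12.4 and 17.0 CPM, a log2 fold change of -0.56 (SE 0.15), and was called. In both the controls lay close together and above every esculetin library. Coq3 measured 28.4, 28.2 and 32.9 CPM against 23.7, 25.8 and 22.1 CPM, a log2 fold change of -0.32 (SE 0.12). It was called, but its call was lost when control replicate 2 (-0.36), control replicate 3 (-0.24) or the esculetin library 3 (-0.27) was left out. Coq7 measured 10.0, 9.57 and 9.44 CPM against 7.54, 9.13 and 6.80 CPM, a log2 fold change of -0.31 (SE 0.16), and was not called, although its groups did not overlap.

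Coq9, the partner of the Coq7 protein, measured 87.8, 97.5 and 93.6 CPM in control cells and 62.9, 63.0 and 52.4 CPM with esculetin. It was called, with a log2 fold change of -0.65 (SE 0.10). Coq2 measured 52.6, 52.6 and 54.1 CPM against 51.1, 45.4 and 41.7 CPM, a log2 fold change of -0.21 (SE 0.10). Its groups did not overlap and it was not called, but it was called without esculetin replicate 1 (-0.29). Coq4 measured 7.36, 7.91 and 7.15 CPM against 5.64, 9.54 and 9.76 CPM and was not called, with esculetin values on both sides of the controls (0.16, SE 0.20). Its estimate was 0.37, 0.05 and 0.02 without esculetin replicates 1, 2 and 3 in turn. Pdss1 measured 4.61, 3.87 and 3.65 CPM against 4.68, 4.23 and 6.58 CPM, the highest estimate of the members in the cells (0.36, SE 0.22), and was not called. That estimate was 0.14 without esculetin replicate 3, the library at 6.58 CPM.

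Of the 8 macrophage genes 5 were called higher and none lower, beside 57.7% of all genes called in either direction and 28.7% called higher. Among the 5 were Lyz2 (638 ± 41.8 to 3496 ± 1090 CPM; SD, n = 3 each) and Csf1r (848 ± 49.7 to 1654 ± 125 CPM). None of the 8 hepatocyte genes had enough counts in the cells to be tested. The part of the macrophage levels in the members' values was not tested.

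**Figure D2:**
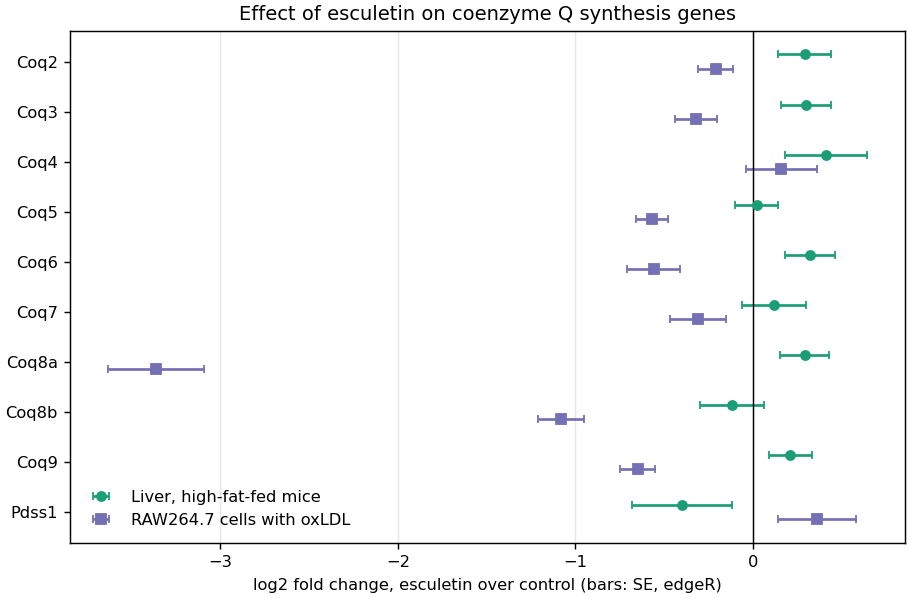
Log2 fold change of esculetin over control for each gene in the liver (circles) and the cells (squares), with bars of 1 SE from edgeR. All liver estimates lie between -0.40 and 0.41, and in the cells Coq8a, which was chosen for its fall there, stands apart at -3.36 and Coq8b follows at -1.08.

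Set against each other within a library, the paralogs gave a ratio that does not depend on scaling. The counts of Coq8a per count of Coq8b were 30.1, 31.4 and 23.3 in the control livers and 31.9, 40.4 and 38.5 in the esculetin livers. In the control cells the ratio was 1.07, 1.22 and 1.18, and in the esculetin cells 0.427, 0.241 and 0.112. Esculetin cells all had fewer Coq8a than Coq8b counts, and every other library had more. Coq8a took 64.3%, 68.0% and 64.7% of the counts of the 10 genes in the control livers and 65.9%, 69.2% and 66.8% in the esculetin livers. Its share was 8.85%, 11.03% and 10.2% in control cells and 2.33%, 1.39% and 0.851% with esculetin. Neither quantity accounts for gene length, so both compare libraries and not genes. The other 9 genes together summed to 246, 279 and 314 CPM in control livers and 319, 311 and 328 CPM with esculetin. In the cells that sum was 291, 306 and 305 CPM in controls and 214, 222 and 208 CPM with esculetin, so that the 9 genes were also lower as a sum.

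**Figure D3:**
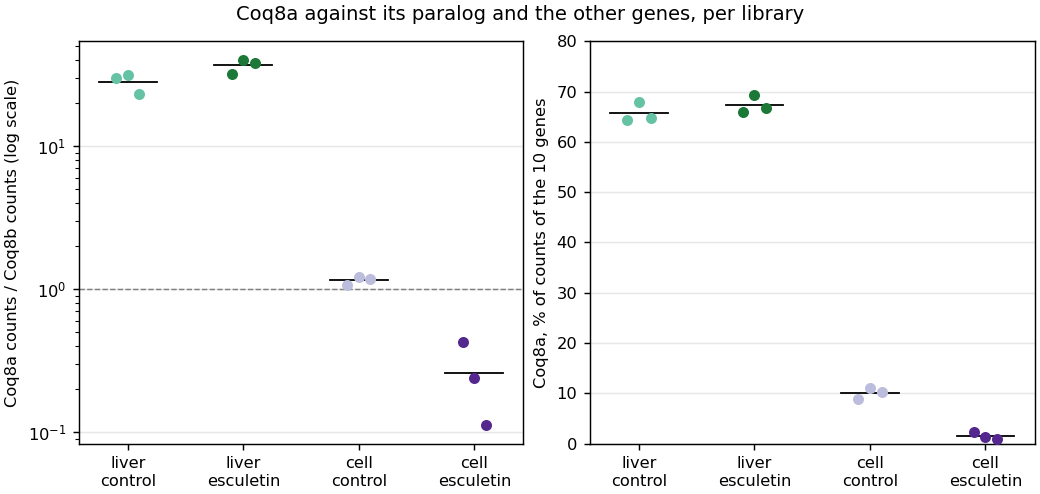
Counts of Coq8a per count of Coq8b on a log axis (left; the dashed line marks equal counts) and Coq8a as a percentage of the counts of the 10 genes (right), for each library, with lines at group means. The ratio runs from 23.3 to 40.4 in the livers, 1.07 to 1.22 in control cells and 0.112 to 0.427 in esculetin cells.

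Levels of different genes were compared only as CPM per kilobase of the union of a gene's exons, on a TMM scale computed over all 12 libraries. In the control livers Coq9 led at 55.2 ± 6.36 CPM per kb and Coq8a followed at 47.2 ± 6.90 CPM per kb (SD, n = 3 each), with overlapping libraries. With the length of the longest transcript Coq8a led instead, at 114 ± 16.6 CPM per kb against 96.6 ± 11.1 for Coq9, because the many annotated Coq8a transcripts give a long exon union (18192 bases, against 7567 for the longest transcript). Below this pair stood Coq2 at 10.8 ± 1.47 and Coq5 at 9.94 ± 0.439 CPM per kb, then Coq6 at 6.42 ± 0.520 and Coq7 at 6.14 ± 1.30 CPM per kb, and the libraries overlapped within each pair. Coq3 (4.02 ± 0.525 CPM per kb), Coq4 (3.49 ± 0.979) and Coq8b (3.07 ± 0.793) overlapped from each to the next, and Pdss1 stood apart as the lowest at 0.769 ± 0.167 CPM per kb. The order of the 10 means was identical in the esculetin livers by exon union.

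In the control cells Coq9 led at 16.9 ± 1.03 CPM per kb, followed by Coq5 at 6.39 ± 0.0219 and Coq2 at 5.91 ± 0.128 CPM per kb, with no overlap between neighbours. Coq6 (2.98 ± 0.214 CPM per kb), Coq3 (2.22 ± 0.207) and Coq8b (1.78 ± 0.161) came next, each apart from its neighbours. Coq8a, at 1.15 ± 0.178 CPM per kb, stood eighth and overlapped with Coq4 (1.34 ± 0.0756) above and Coq7 (0.933 ± 0.0209) below. With the longest transcript as length Coq8a was instead seventh, at 2.76 ± 0.427 CPM per kb, above Coq7 and Coq4 and apart from its neighbours, and Coq8b stood next below Coq2, at 4.91 ± 0.445 CPM per kb. In the esculetin cells Coq8a was last, at 0.114 ± 0.0585 CPM per kb, apart from Pdss1 at 0.603 ± 0.144 CPM per kb. Its last place held for both definitions of length.

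**Figure D4:**
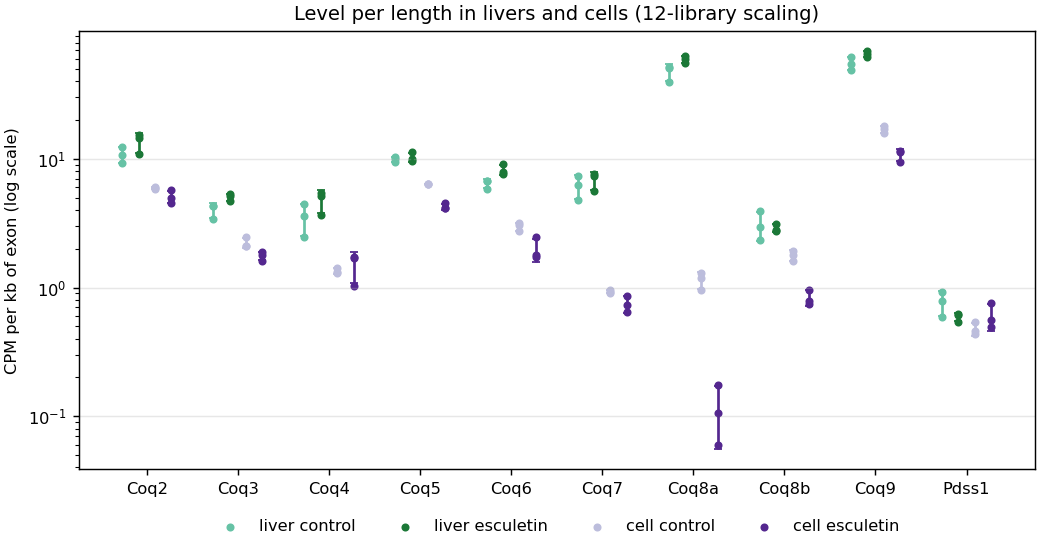
Level of each gene as CPM per kb of exon on a log axis, on the scale of all 12 libraries, with a point for each library and a bar of 1 SD around the mean. Coq8a runs from 0.0600 CPM per kb in an esculetin cell library to 62.6 in an esculetin liver, the widest span of the 10 genes.

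The control livers and control cells were compared in 1 model of all 4 groups. The control cells also entered the comparison that chose Coq8a, so the members' values here are a description without p-values. All 10 members were called higher in liver, where 84.9% of all 15709 genes were called and 42.8% were called higher in liver. The median log2 fold of the members was 0.99, and that over all genes was -0.03. Coq8a was 41.2-fold higher in liver, a log2 fold of 5.36 (SE 0.24). Coq7 followed at 2.72 (SE 0.17) and Coq9 at 1.70 (SE 0.11). The remaining 7 members lay between 0.64 for Coq5 and 1.38 for Coq4, with Coq8b at 0.79 (SE 0.17). Pdss1, at 0.68 (SE 0.25), lost its call without cell control replicate 2 (0.65), cell control replicate 3 (0.61) or liver control replicate 3 (0.57). With scaling to library size alone, the median of all genes moved to -1.40, 7 members had a log2 fold below 0 (Coq4 at -0.0008), and 8 members were called, 5 of them lower in liver. Coq7 (1.34), Coq8a (3.99) and Coq9 (0.33) kept their direction under that scaling, with smaller estimates. All 10 members stayed above the median of all genes. Tissue, culture and the set in which libraries were made cannot be told apart in this comparison, and the controls of the cells had received oxLDL.

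Other genes of coenzyme Q handling, from lists fixed for the purpose, were counted in the same fits. In the liver none of the 6 tested accessory genes passed edgeR's test, with 1 at an unadjusted p under 0.05, and the median log2 fold change was 0.14. That gene was Coq10b, which encodes a coenzyme Q binding protein, at 14.9 ± 1.46 and 18.7 ± 0.548 CPM (SD, n = 3 each; 0.33, SE 0.14, edgeR adjusted p 0.556). Pdss2, the other subunit of the tail synthase, measured 9.01 ± 0.591 and 10.4 ± 0.290 CPM in the livers (0.21, SE 0.16, edgeR adjusted p 0.742). The ferredoxin reductase Fdxr (0.14), the rhomboid protease Parl (0.14), the lipid carrier Stard7 (0.05) and Coq10a (-0.03) lay close to 0, and Hpdl and Fdx2 had too few counts to be tested. Of the other ADCK kinases, Adck5 measured 33.7 ± 7.96 and 44.3 ± 2.59 CPM (0.39, SE 0.16, edgeR adjusted p 0.545), Adck1 had a log2 fold change of 0.06 and Adck2 of 0.04.

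In the cells 4 of 7 tested accessory genes were called lower and 1 higher, with a median of -0.44. Of all genes tested in the cells, 29.0% were called lower and 28.7% higher. Fdxr, which passes electrons toward the Coq6 hydroxylase, was at 34.5 ± 1.33 and 14.3 ± 2.13 CPM (SD, n = 3 each; -1.27, SE 0.13), and Hpdl, which acts in ring synthesis, at 1.91 ± 0.643 and 0.831 ± 0.333 CPM (-1.22, SE 0.42). Stard7, which moves coenzyme Q out of mitochondria and is cut by Parl, was called lower at -0.46 (SE 0.09), and Pdss2 at -0.44 (SE 0.14). Coq10b was called higher, from 8.82 ± 1.16 to 17.5 ± 0.796 CPM (0.99, SE 0.14), while Coq10a (0.04, SE 0.11) and Parl (-0.27, SE 0.11) were not called and Fdx2 was not tested. Among the ADCK kinases outside the group, Adck5 was called higher, from 12.1 ± 1.12 to 26.05 ± 2.21 CPM (1.10, SE 0.12), and Adck1 (0.02, SE 0.14) and Adck2 (-0.28, SE 0.13) were not called. The 5 ADCK genes thus held called values in both directions in the cells.

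The mevalonate genes that feed the tail were called lower in 6 of 9 and higher in 1 in the cells, with a median of -0.59. Beside this, 29.0% of all genes tested in the cells were called lower and 28.7% higher. Pmvk was at -1.77 (SE 0.10), Mvd at -0.74 (SE 0.10) and Acat2 at -0.59 (SE 0.09), and Mvk was at 31.0 ± 1.86 and 15.4 ± 2.18 CPM (SD, n = 3 each). In the liver none of these 9 passed edgeR's test (1 at an unadjusted p under 0.05), and 8 had a log2 fold change below 0, with a median of -0.26. The lowest p there was that of Hmgcs1, at 165 ± 42.2 and 109 ± 41.6 CPM (SD, n = 3 each; -0.59, SE 0.24, edgeR adjusted p 0.537), and Mvk (0.32) and Fdps (-0.68) were also among the 4 with the smallest p.

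Most genes of the enzymes that reduce and oxidize coenzyme Q were called lower in the cells. For comparison, 57.7% of all genes tested in the cells were called, 29.0% lower and 28.7% higher. Of 12 tested Q-reducing genes, which belong to complexes I and II and to other dehydrogenases, 8 were called lower and none higher, with a median of -0.50. The succinate dehydrogenase subunits Sdhb (-0.83, SE 0.09), Sdhc (-0.65, SE 0.09) and Sdhd (-0.62, SE 0.08) and the complex I subunit Ndufs7 (-0.65, SE 0.11) were among them. Complex III, which oxidizes the reduced form, had 8 of 9 genes called lower and a median of -0.40, with Cyc1 at -0.61 (SE 0.10), Uqcrc2 at -0.55 (SE 0.08), Uqcr10 at -0.52 (SE 0.11) and Uqcrfs1 at -0.50 (SE 0.08). Coq8a, at -3.36, lay below every tested gene of these lists, but it was chosen for its fall in this comparison. In the liver none of the 14 Q-reducing genes (median 0.10; 1 at an unadjusted p under 0.05) and none of the 9 complex III genes (median 0.18, all 9 above 0; 0 at an unadjusted p under 0.05) passed edgeR's test. The liver genes with the smallest p were Gpd2 (-0.47), Prodh (0.31), Sdha (0.24) and Sdhc (0.25) in the first list and Uqcrh (0.24), Uqcrc1 (0.24), Uqcr11 (0.21) and Cyc1 (0.22) in the second.

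Genes of mitochondrial structure and import had calls in both directions in the cells. Of 15 tested there, 5 were called lower and 1 higher, with a median of -0.15. Among all genes tested in the cells, 57.7% were called, 29.0% lower and 28.7% higher. Citrate synthase, Cs, was at 804 ± 38.2 and 422 ± 17.4 CPM (SD, n = 3 each; -0.93, SE 0.08) and the prohibitin Phb2 at -0.79 (SE 0.09), Vdac2 at -0.24 (SE 0.08), and Immt, which shapes the inner membrane, was higher at 0.59 (SE 0.08). Of 7 tested regulators of mitochondrial genes, 5 were called lower, with a median of -0.44, led by the coactivator Ppargc1b, from 19.2 ± 2.19 to 6.98 ± 1.20 CPM (-1.46, SE 0.16), followed by Nrf1 (-0.78, SE 0.11), Trp53 (-0.61, SE 0.09) and Yy1 (-0.43, SE 0.09). In the liver none of the 15 (median 0.08) or the 9 (median -0.08) passed edgeR's test, with 1 of each at an unadjusted p under 0.05. Those were Timm23 (0.48, SE 0.18, edgeR adjusted p 0.491) and Ppargc1b (-0.87, SE 0.34, edgeR adjusted p 0.523), and next by p came Tfam (-0.24), Tomm22 (0.20) and Tomm20 (0.18) in the first list and Ppara (-0.26), Esrra (0.19) and Nrf1 (-0.26) in the second.

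**Figure D5:**
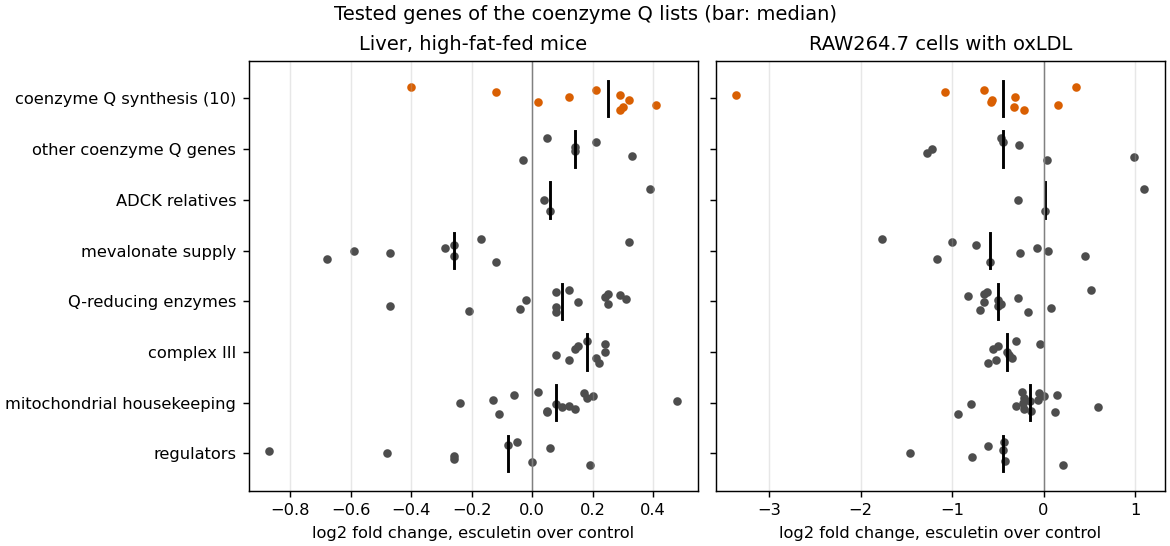
Log2 fold change of esculetin over control for each tested gene of the 10 members (orange) and of 7 related lists (grey), in the liver (left) and the cells (right), with a bar at each list's median. The 2 panels have different horizontal scales. In the liver the medians run from -0.26 to 0.25, and in the cells from -0.59 to 0.02 with Coq8a alone beyond -3. Coq8a was chosen for its fall in the cells.

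Genes that lie next to or over the members were examined, because the sources used here do not state whether counting used strand, and reads in an overlap of opposite genes cannot then be told apart. Coq8a overlaps Cdc42bpa on the other strand by 368 bases. Cdc42bpa was at 0.0324 ± 0.0562 and 0.266 ± 0.156 CPM in the cells (SD, n = 3 each) and was not tested there, and at 12.5 ± 3.25 and 12.0 ± 0.611 CPM in the livers. On the other side the nearest protein-coding gene, Psen2, lies 25275 bases away and was higher with esculetin in the cells, at 9.49 ± 0.583 and 17.8 ± 0.527 CPM (0.91, SE 0.12), against 0.13 (SE 0.13) in the liver. Neither neighbour was lower on average with esculetin in the cells.

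Several members overlap genes that were higher with esculetin in the cells. Coq5 shares 6602 bases of its locus with Dynll1, which went from 28.7 ± 1.95 to 91.9 ± 25.1 CPM (1.68, SE 0.17). Coq4 shares 1010 bases with Trub2 (1.12, SE 0.13), Coq6 shares 137 with Entpd5 (0.33, SE 0.08) and 222 with Fam161b (0.14, SE 0.26), Pdss1 shares 196 with Abi1 (0.51, SE 0.10), and Coq2 shares 4282 with the noncoding Gm15777 (0.93, SE 0.35). Coq8b shares 1406 bases with Itpkc (-0.68, SE 0.17) and 8689 with the noncoding Gm15567 (-0.50, SE 0.39), and Coq9 shares 544 with Ciapin1 (0.04, SE 0.12). These members' counts are uncertain to the extent that reads fell in the shared bases. The overlapping Gm44641 (Coq8b), Gm13829 (Coq5), Gm14441 and Gm56180 (both Pdss1) reached at most 0.169 CPM on average in any group, and 1 further noncoding gene over Pdss1 was not analysed here.

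The genes whose level ran most like that of Coq8a over the 12 libraries, by Pearson's r of log2 CPM among 10448 genes tested in both tables, were Slc25a23 (0.999), Smpdl3a (0.999), Anxa6 (0.998), Isoc1 (0.997) and Kdelr1 (0.997). The 12 points share 4 groups and 2 sources, so a high r needs only steps between groups in similar proportion, whatever their size. How many genes have a high r is not given here. On the scale of all 12 libraries Slc25a23, which encodes a mitochondrial carrier, was at 597 ± 47.6 CPM in control livers, 642 ± 41.4 in esculetin livers, 118 ± 6.47 in control cells and 40.5 ± 4.86 in esculetin cells (SD, n = 3 each). On that scale Coq8a was at 859 ± 126, 1075 ± 64.8, 20.9 ± 3.23 and 2.07 ± 1.06 CPM. Among the other members r with Coq8a was highest for Coq9 (0.991) and Coq5 (0.987), was 0.938 for Coq8b, and was lowest for Coq4 (0.851) and Pdss1 (0.346).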

How the data were processed

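The authors deposited raw counts per gene, with liver and cells in separate tables of 6 libraries each and no unused sample column. According to the study's methods, reads were aligned to GRCm39 with HISAT2 2.2.1 and counted with featureCounts. The submitters' processing notes also list mm10. Strand setting and annotation release are not given in the sources used here. Symbols, coordinates and lengths were taken from GENCODE on GRCm39, where 54749 of 55357 identifiers were found.

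Each table was tested alone in edgeR 4.0.16 (R 4.3.3) with filterByExpr, TMM scaling, the quasi-likelihood test and Benjamini-Hochberg adjustment at 0.05, first tested on simulated counts. SE is the size of the fitted log2 difference divided by √F. Controls of both sources were compared in a model of 12 libraries. Alternatives were RLE, upper quartile and library size scaling, no filter or 1 CPM, DESeq2 1.42.0, limma-voom 3.58.1, the study's limma criterion (unadjusted p of 0.05 and 1.5-fold), a replicate block, each replicate left out, and another gene length. Likeness used a prior count of 2.

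The members, lists and motifs were chosen with earlier results of these data known. Named were all members, accessory and ADCK genes, overlapping or nearest genes, up to 4 genes of each other list by smallest p, and the 5 genes most like Coq8a. Depth and the 3 libraries a group limit precision. Some items examined are not reported here.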

Additional observations from a re-analysis of the deposited data

Results flagged for a closer look

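In 3 members every esculetin library lay above every control library in the liver and below every control library in the cells. Over all tested genes, 835 of 12813 lay wholly above in the liver, and 4398 of 13277 lay wholly below in the cells. The number of genes that did both was not counted, so it is not known how unusual the 3 are. These were Coq3 (log2 fold change 0.30 in the liver and -0.32 in the cells), Coq6 (0.32 and -0.56) and Coq8a (0.29 and -3.36). The difference between the sources was not tested, because the cell comparison entered the choice of the genes, and none of the 3 passed edgeR's test in the liver. Source, dose, vehicle and exposure differed together.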

How the results depend on the processing

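No member was called in the liver by edgeR's test or any alternative. With edgeR 2 members had an unadjusted p under 0.05, and the alternatives gave 0 to 6. In the cells 5 to 7 of the members were called, except 3 under the study's criterion, which asks for a 1.5-fold change and drops Coq3, Coq5 and Coq6. Coq2 was also called with library size only (-0.27). Coq8a stayed at -3.80 to -3.03 in the cells and 0.18 to 0.37 in the liver. In the liver Coq5 turned to -0.04 with library size only, -0.02 without control replicate 1 and -0.06 without esculetin replicate 2, Coq7 ran from -0.03 without control replicate 1 to 0.25 without control replicate 3, and Coq8b from -0.27 to 0.08 without the same libraries. Between control livers and control cells, library size scaling turned Coq2 to -0.50, Coq3 to -0.51, Coq4 to -0.0008, Coq5 to -0.73, Coq6 to -0.26, Coq8b to -0.59 and Pdss1 to -0.69, as the median of all genes moved to -1.40. Of all genes in the liver, 11 were called, against 98 with DESeq2, 0 with library size only (edgeR), 339 with no filter, 123 with the replicate block and 499 under the study's criterion. Leaving out a replicate gave 0 to 31. In the cells 7667 were called, against 5041 when the study's criterion was applied here to the limma-voom fit. The study itself reported fewer genes for these cells. The cause of these shifts was not tested. With the replicate block 7982 genes and 6 members were called in the cells and 0 members in the liver. Deviations of same-numbered libraries correlated at 0.14, -0.01 and 0.10 in the liver and 0.16, -0.03 and 0.08 in the cells. Library 1 correlated best with its own number in both tables, and library 2 with another number. These low values do not settle whether libraries were paired by number.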
